A study of Homo sapiens with 14 samples.

Results

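H3K4me2 was examined in MDA-MB-231 cells at 9 genes that encode subunits of the Polycomb complexes or demethylases of H3K27: EZH2, EED, SUZ12, JARID2, BMI1, RNF2, CBX8, KDM6A and KDM6B. A region of the deposited count table was taken for a gene when it overlapped the RefSeq span of the gene on hg38 or lay within 5 kb of it. This gave 48 of the 54942 regions, with no region in common between 2 of the genes, and 9 of 15856 protein-coding genes that held a region under the same definition. MDA-MB-231 is an established triple-negative breast cancer line. The groups were cells given the solvent DMSO and cells given OICR-9429, an inhibitor dissolved in DMSO that antagonises WDR5, a subunit shared by the enzyme complexes that methylate H3K4. Both groups were kept 24 to 96 hours, with no time given per library, and both had 5% Drosophila chromatin added as a spike-in. Each group had 3 ChIP libraries, titled biological replicates 1 to 3, and the labels do not say how the cultures were kept apart. The p-values therefore measure only how these libraries vary, which may be technical. Input libraries and 1 untreated ChIP library of the series were not analysed here.

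Polycomb proteins keep genes silent through 2 kinds of complex. Polycomb repressive complex PRC2 methylates H3K27, and PRC1 compacts chromatin and attaches ubiquitin to histone H2A. The demethylases KDM6A (UTX) and KDM6B (JMJD3) remove methyl groups from H3K27, and KDM6A is itself a subunit of the H3K4 methyltransferase complexes built on KMT2C and KMT2D, which also contain WDR5. H3K4me2 marks active promoters and distal regulatory elements, so its level at these genes describes the chromatin of the genes and not the amount or activity of their proteins.

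The libraries held 16483098 to 23509413 counts in regions. The start regions of 7 of 7 genes typical of mesenchymal or basal-like breast cancer cells were present, at 15.9 to 144 normalised CPM in DMSO. Of 8 luminal or epithelial genes 6 had a start region, at 10.1 to 76.2, while the starts of CDH1 and EPCAM had none. No start region was found for any of 4 blood genes, and 1 of 3 endothelial genes (KDR, 21.5 normalised CPM) had one. A start was listed for 15812 of 19974 protein-coding genes. A gene without a start region may thus lack a listed start, or its start may lie between regions. These cases were not told apart from a start without H3K4me2. Normalised CPM are counts scaled to the library sizes with TMM factors (CPM), and they show a region relative to all others. No factor from the Drosophila chromatin was applied, and a change common to every region is therefore invisible here.

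The start regions of these genes differed in H3K4me2 level and in length. A start region is a region that overlaps a gene start listed by RefSeq. CBX8 was counted by its only region, which lies within 1 kb of a gene end. BMI1 had no region over its start. In DMSO the start region of KDM6B, an H3K27 demethylase gene induced by inflammatory signals, stood highest per length at 12.6 ± 2.70 normalised CPM per kb (SD, n = 3). The start region of JARID2, which encodes a DNA-binding partner of PRC2, followed at 10.9 ± 1.49, that of RNF2 (RING1B, the catalytic ubiquitin ligase of PRC1) at 9.34 ± 0.793 and that of CBX8 (a PRC1 subunit that binds H3K27me3) at 8.61 ± 1.67. The PRC2 core genes were lower, with EZH2 (the methyltransferase) at 6.67 ± 0.504, EED (the subunit that binds H3K27me3) at 5.38 ± 0.339 and SUZ12 (the scaffold) at 5.11 ± 0.409, and KDM6A lay between EZH2 and EED at 5.66 ± 0.507. In this order the ranges of the 3 DMSO libraries overlapped between neighbours, except between CBX8 and EZH2 and between EZH2 and KDM6A. The median of all 9790 start regions of protein-coding genes was 8.27 normalised CPM per kb, so KDM6B stood at percentile 89.6 and SUZ12 at percentile 9.85 of them. These levels are not corrected for gene copy number or for input.

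The KDM6B region covered 12759 bases, longer than 95.5% of all start regions, and the regions of CBX8, EZH2 and EED covered 8548, 8156 and 7962 bases. The RNF2 region was the shortest at 3474 bases, below the median of 3971.5. The long EZH2 and EED regions therefore held low levels per kb over a wide stretch.

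The 250 bases before the start are shown for the members with the highest level and highest log2 fold change (KDM6B), the lowest log2 fold change (EED) and the lowest level (SUZ12) of the start regions, and for BMI1, which was added after its values were seen because its start lies outside its regions. The sequences are from RefSeq on GRCh38.p14, the assembly of hg38, read 5′ to 3′ on the strand of the gene, all plus. Capitals mark every match on either strand to CCAAT (the CCAAT box), GGGCGG (the GC box), CACGTG (the E-box), CCGGAAG (the ETS core), TATAAA (the TATA box) or the E2F words TTTCCCGC, TTTCGCGC, TTTGCCGC and TTTGGCGC, and matches may overlap.
KDM6B, chr17:7833967-7834216: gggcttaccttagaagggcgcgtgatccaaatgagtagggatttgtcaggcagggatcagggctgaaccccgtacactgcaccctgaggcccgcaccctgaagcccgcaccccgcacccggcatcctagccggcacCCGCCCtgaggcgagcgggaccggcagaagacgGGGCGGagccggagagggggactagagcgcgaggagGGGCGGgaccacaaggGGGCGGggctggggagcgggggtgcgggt
EED, chr11:86244503-86244752: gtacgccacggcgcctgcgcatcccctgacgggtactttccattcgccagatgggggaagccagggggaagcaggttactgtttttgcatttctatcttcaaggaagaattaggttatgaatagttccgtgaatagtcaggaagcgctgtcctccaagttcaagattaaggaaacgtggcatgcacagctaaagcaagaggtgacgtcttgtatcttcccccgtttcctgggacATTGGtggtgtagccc
SUZ12, chr17:31936757-31937006: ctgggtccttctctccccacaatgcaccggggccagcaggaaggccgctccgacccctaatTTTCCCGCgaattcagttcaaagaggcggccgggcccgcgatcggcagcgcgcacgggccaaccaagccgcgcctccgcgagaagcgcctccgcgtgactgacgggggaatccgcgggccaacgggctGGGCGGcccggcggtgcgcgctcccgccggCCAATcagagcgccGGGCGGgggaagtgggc
BMI1, chr10:22320849-22321098: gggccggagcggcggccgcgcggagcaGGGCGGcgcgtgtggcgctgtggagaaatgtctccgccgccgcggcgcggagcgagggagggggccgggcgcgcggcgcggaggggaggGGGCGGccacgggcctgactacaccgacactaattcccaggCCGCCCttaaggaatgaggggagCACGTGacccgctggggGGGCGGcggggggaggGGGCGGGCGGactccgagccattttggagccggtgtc

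Sequences were found for 8 of the 9 genes, without CBX8. The promoters were mostly rich in CpG. EZH2 held 38 CpG dinucleotides in its 250 bases, BMI1 35, SUZ12 and RNF2 34 each, KDM6A 27, JARID2 22 and KDM6B 21, beside a median of 16 over 22199 promoters of protein-coding genes. EED was the exception with 11 CpG, fewer than the median, and with a GC content of 51.2% beside a median of 62.0%. The GC box was present in 7 of 8, all but EED, and in 53.7% of all promoters. The CCAAT box was present in 5 of 8, with 4 matches in EZH2, and in 32.7% of all promoters. An E-box was found in BMI1 and KDM6A (7.37% of all promoters), a TATA box in JARID2 (9.0%) and an E2F word in SUZ12 (3.48% for any of the 4 words), while the ETS core was found in none of the 8 (10.7%). These are matches of letters only.

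The comparison asks what a WDR5 antagonist does to H3K4me2 at these genes. With OICR-9429 the start regions of EZH2, JARID2, RNF2, KDM6A and KDM6B were higher, by 1.24 to 1.53 times, as were both regions flanking the BMI1 start, while 5 regions inside JARID2 and 1 inside EZH2 were lower. Of the 48 regions 44 passed the filter on low counts, and edgeR's quasi-likelihood test called 9 higher and 6 lower at an adjusted p under 0.05. Without 2 weak regions that passed the filter on their OICR-9429 libraries alone, 1 each in KDM6B and JARID2, 8 were higher and 6 lower of 42. Of all tested regions 17.0% were called higher and 14.0% lower. Among the 8 start regions, CBX8 included, 5 were called higher and 0 lower, beside 54.6% and 1.81% of all 9588 tested start regions. Their median log2 fold change was 0.35, beside 0.38 for all tested start regions. The calls and the median at the starts of these genes were thus near those of start regions in general. Of the 36 other tested regions 2 cover the start of a neighbouring protein-coding gene, and both were higher. Of the remaining 34, 2 were higher and 6 lower (1 and 6 of 32 without the 2 regions that the filter passed on OICR-9429 alone). Among all regions that overlap a protein-coding gene without covering a start 9.36% were higher and 17.4% lower. The groups did not overlap in 6 of the 8 start regions, all with OICR-9429 above, beside 65.8% of all start regions with it above and 2.92% with it below. In the 34 OICR-9429 lay wholly above in 5 and wholly below in 6, beside 16.2% and 25.6%, and the filter alone fixed the direction of 2 of the 5.

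Scaling and single libraries bear on these calls. DMSO replicate 3 was the highest DMSO library, and so the nearest to OICR-9429, at all 8 start regions and both BMI1 regions. Over all regions it differed from DMSO replicates 1 and 2 by a chi-square of 4.35 and 6.38 per degree of freedom, against 1.55 between those 2, and the OICR-9429 libraries differed from each other by 2.64 to 8.88. Loess offsets correct each library for a trend with region strength. Under them 2 member regions were higher and 3 lower, beside 5.45% and 8.94% of all regions. They were 1 of 8 start regions, higher (7.12% of all start regions were higher and 3.33% lower), and 1 higher and 3 lower of the 34 that cover no start (5.22% and 11.6% of regions that overlap a gene and no start). The median of all start regions moved from 0.38 to 0.11 with these offsets. Without DMSO replicate 1 the count was 3 higher and 3 lower, beside 2.26% and 8.45% of all regions, and without DMSO replicate 2 it was again 3 and 3, beside 2.14% and 7.95%. Without OICR-9429 replicate 2 it was 5 higher and 4 lower, beside 8.76% and 9.68%. With library totals in place of TMM 5 were higher and 7 lower, beside 6.45% and 23.4%. Library totals moved the median of all tested start regions from 0.38 to 0.19. They moved that of tested regions that overlap a gene and no start from -0.06 to -0.26. A region inside JARID2, 112.7 kb after its start, and the start region of KDM6B kept their calls in all 14 other fits.

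**Figure D1:**
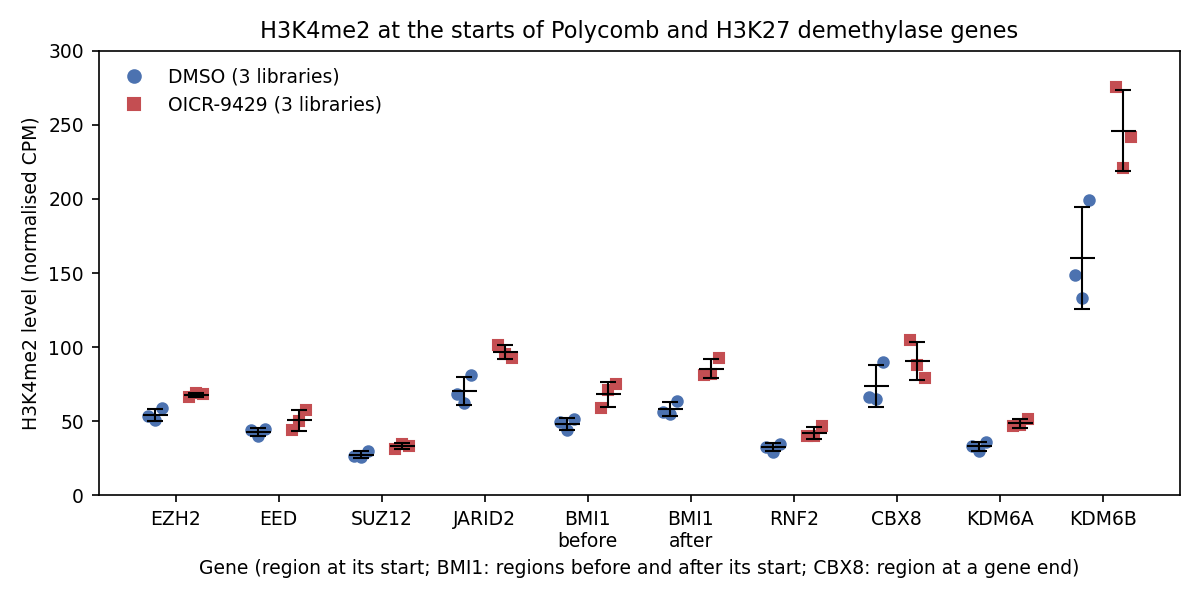
H3K4me2 level in normalised CPM (y axis) at the start region of each gene (x axis) in 3 DMSO libraries (circles) and 3 OICR-9429 libraries (squares), with bars for mean ± SD; for BMI1 the regions before and after its start are shown, and for CBX8 the region at a gene end. The OICR-9429 libraries of KDM6B lie between 221 and 275, above the DMSO libraries at 133 to 199, while the groups overlap at EED and CBX8.

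**Figure D2:**
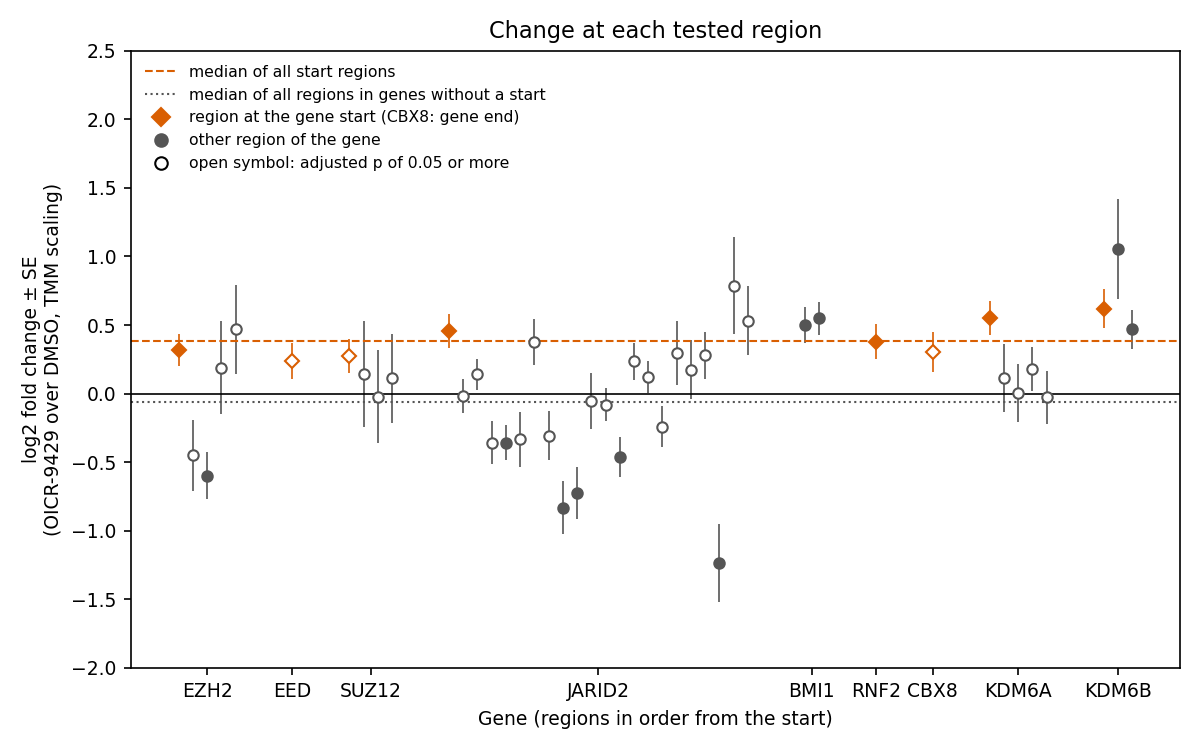
Log2 fold change with its SE (y axis) of the 44 tested regions, grouped by gene and in order from the gene start (x axis); diamonds are start regions, circles other regions, and open symbols have an adjusted p of 0.05 or more. The filled diamonds lie between 0.32 and 0.62, around the dashed median of all start regions at 0.38, and the filled circles below 0 belong to EZH2 and JARID2.

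The 3 core genes of PRC2 had small differences at their starts. The EZH2 start region (chr7:148877494-148885649) held 53.6, 50.8 and 58.9 normalised CPM in DMSO replicates 1 to 3 and 66.1, 68.7 and 68.4 in OICR-9429 replicates 1 to 3. The groups did not overlap, and the region was 1.24 times higher (log2 fold change 0.32, SE 0.12, adjusted p = 0.0482). This call was marginal: the value was -0.01 with loess offsets and 0.12 with library totals, and the call was lost under 12 of the 14 other fits. The EED start region (chr11:86243687-86251648) held 44.1, 39.7 and 44.7 in DMSO and 44.0, 49.8 and 57.9 with OICR-9429. The groups overlapped, and the log2 fold change of 0.24 (SE 0.13, adjusted p = 0.170) did not pass the threshold. The SUZ12 start region (chr17:31935995-31941382) held 26.8, 25.7 and 30.0 in DMSO and 31.3, 34.8 and 33.6 with OICR-9429. All 3 OICR-9429 libraries lay above the DMSO libraries, and the log2 fold change was 0.27 (SE 0.12, adjusted p = 0.103; 0.34 and past the threshold without DMSO replicate 3). These 3 values stood at percentiles 34.1, 21.3 and 26.2 of the log2 fold changes of all start regions.

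Inside EZH2 a distal region was lower. It lies 61.4 kb from the start (chr7:148819232-148822887) and held 11.5, 12.2 and 10.1 normalised CPM in DMSO against 5.54, 8.83 and 8.08 with OICR-9429. The groups did not overlap, and the region fell by 0.60 on the log2 scale (SE 0.17, adjusted p = 0.0196). The value was -0.54 with loess offsets (adjusted p = 0.0412), and the call was lost without DMSO replicate 1 or 2. The 4 further EZH2 regions were weak, at 0.357 to 2.09 normalised CPM in DMSO, and 1 of them fell under the count filter. Their 3 tested members had log2 fold changes of -0.45, 0.19 and 0.47 with adjusted p of 0.193, 0.695 and 0.277. EED held no region beyond its start. The 5 other SUZ12 regions held 0.215 to 0.787 normalised CPM in DMSO, 2 of them fell under the count filter, and the 3 tested had log2 fold changes of 0.14, -0.02 and 0.11, with SEs of 0.33 to 0.39. The first of these 3 held 9, 12 and 10 counts in DMSO and 7, 14 and 12 with OICR-9429, and the last 15, 13 and 16 against 16, 11 and 19. Both pairs of groups overlapped, and a difference of this size was not detectable at such counts.

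JARID2 differed from the PRC2 core in layout: it held 23 regions along 275.974 kb. Its start region (chr6:15244020-15250486), which also covers the starts of JARID2-AS1 and JARID2-DT, held 68.1, 62.2 and 81.1 normalised CPM in DMSO and 102, 95.2 and 92.8 with OICR-9429. The groups did not overlap, and the region was 1.37 times higher (log2 fold change 0.46, SE 0.12, adjusted p = 0.0154). The call did not hold under loess offsets (0.12), nor without DMSO replicate 1 (0.37) or 2 (0.32). The strongest region of the gene lay inside it, 34.9 kb after the start (chr6:15280997-15291004), and covered 10008 bases. It held 98.8, 91.9 and 97.0 in DMSO and 98.5, 104 and 115 with OICR-9429. Here the groups overlapped (log2 fold change 0.14, SE 0.11, adjusted p = 0.353), and the value turned to -0.20 with loess offsets and to -0.06 with library totals.

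Within JARID2 the lower regions were spread along the gene. In a region 112.7 kb after the start (chr6:15358768-15359836) DMSO libraries held 5.58, 6.42 and 4.50 normalised CPM and OICR-9429 libraries 2.87, 2.89 and 3.56. The groups did not overlap, and the region fell by 0.83 (SE 0.19, adjusted p = 0.00823; -0.60 with loess offsets, adjusted p = 0.0452). A neighbour at 119.1 kb (chr6:15365155-15366006) went from 5.74, 6.10 and 6.61 to 2.77, 4.30 and 4.20 and fell by 0.72 (SE 0.19, adjusted p = 0.0139), a call lost with loess offsets (-0.53, adjusted p = 0.0621). The region with the smallest p lay near the far end of the gene, at 258.3 kb (chr6:15504411-15505861), and fell by 1.24 (SE 0.28, adjusted p = 0.00776; -0.89 with loess offsets, adjusted p = 0.0588). It was weak, with 55, 51 and 47 counts in DMSO and 29, 10 and 24 with OICR-9429. Regions at 59.2 kb and 157.5 kb fell by 0.36 and 0.46 (adjusted p = 0.0467 and 0.0287). The first kept its call with loess offsets (-0.55, adjusted p = 0.0184) and the second did not (-0.37, adjusted p = 0.0786). Both of these calls were lost without DMSO replicate 1 or 2 and without OICR-9429 replicate 2.

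The other 16 tested JARID2 regions inside the gene were not called, with log2 fold changes from -0.36 to 0.79. Among them the region at 265.1 kb stood at 0.53 (adjusted p = 0.116) and was called higher with loess offsets (0.83, adjusted p = 0.0326). It was weak, with 29, 26 and 21 counts in DMSO and 38, 44 and 25 with OICR-9429. Up to 197.1 kb after the start every JARID2 region held at least 4.34 normalised CPM per kb in DMSO, and from 245.1 kb on none held more than 1.96. The 5 lower regions were 5 of 21 tested regions inside JARID2, beside 17.4% of all regions that overlap a gene without covering a start. OICR-9429 lay wholly below DMSO in these 5 and wholly above in 3 others, beside 25.6% and 16.2% of all such regions. Among those above, the region at 261.1 kb passed the count filter on its OICR-9429 libraries alone. The 6 regions from 94.7 to 157.5 kb after the start all had values below 0, 3 of them called. Those at 143.2 and 153.0 kb stood at only -0.06 and -0.08, and the former turned to 0.17 with loess offsets. The 3 regions from 197.1 to 252.2 kb had values of 0.29, 0.18 and 0.28, none called. The bounds of both stretches were chosen after the values were seen.

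**Figure D3:**
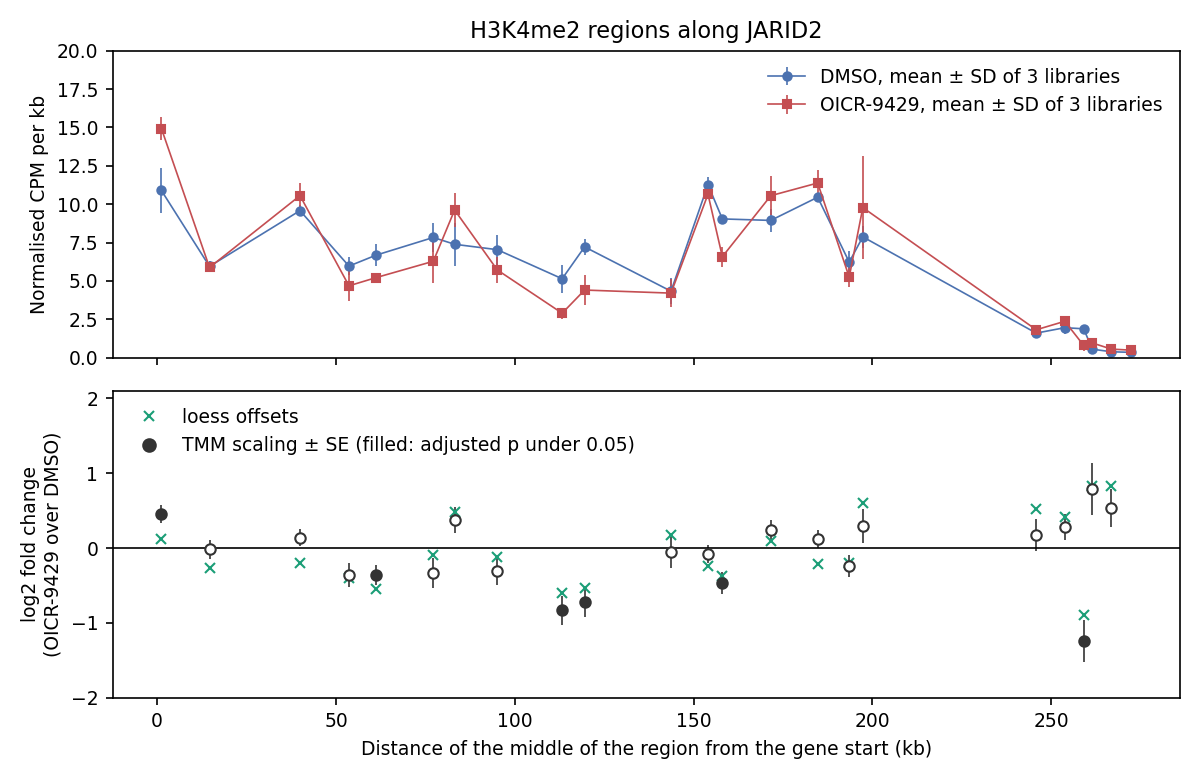
Upper panel: H3K4me2 level per length (normalised CPM per kb, mean ± SD of 3 libraries) of the 23 JARID2 regions against the distance of their middle from the gene start (kb). Lower panel: log2 fold change of the 22 tested regions with TMM (circles with SE, filled where adjusted p is under 0.05) and with loess offsets (crosses); the filled circles are the start region at 0.46 and the 5 lower regions between -0.36 and -1.24.

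Of the PRC1 genes, BMI1 (PCGF4, the partner that activates the RNF2 ligase) had regions on both sides of its start and none over it. The start lay 569 bases after the end of one region and 1016 bases before the next, in a gap of 1584 bases that also holds its second listed start. The region before the start (chr10:22315014-22320530), which covers the start of the neighbouring gene COMMD3, held 49.3, 43.9 and 51.4 normalised CPM in DMSO and 58.8, 70.9 and 74.9 with OICR-9429. It was 1.41 times higher (log2 fold change 0.50, SE 0.13, adjusted p = 0.0123). The region after the start (chr10:22322115-22327248) held 56.1, 55.1 and 63.7 in DMSO and 81.5, 81.9 and 92.7 with OICR-9429 and was 1.46 times higher (log2 fold change 0.55, SE 0.12, adjusted p = 0.00623). In both regions the groups did not overlap. With loess offsets the values were 0.18 and 0.22 and neither passed, and leaving out DMSO replicate 1, DMSO replicate 2 or OICR-9429 replicate 2 ended the call of the region before the start only.

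RNF2 and CBX8 each held 1 region. At RNF2 (chr1:185044770-185048243) DMSO libraries held 32.8, 29.5 and 35.0 normalised CPM and OICR-9429 libraries 40.0, 39.9 and 46.7. The groups did not overlap and the region was 1.30 times higher (log2 fold change 0.38, SE 0.13, adjusted p = 0.0352), at percentile 49.2 of all start regions. The value was 0.09 with loess offsets and 0.18 with library totals, and neither passed. The RNF2 call was lost under 9 of the 14 other fits, among them those without DMSO replicate 1 or 2 and without OICR-9429 replicate 2 or 3. At CBX8 (chr17:79793563-79802110) DMSO libraries held 66.1, 64.7 and 90.0 and OICR-9429 libraries 105, 87.7 and 79.4. DMSO replicate 3 stood above the other DMSO libraries and inside the OICR-9429 range. The log2 fold change was 0.30 (SE 0.15, adjusted p = 0.122), and 0.47 and past the threshold without DMSO replicate 3.

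The 2 demethylase genes had the highest fold changes of the 8 start regions, though no difference between genes was tested. The KDM6A start region (chrX:44870622-44876453) held 33.1, 30.0 and 35.9 normalised CPM in DMSO and 46.5, 47.2 and 51.8 with OICR-9429. The groups were well apart, and the region was 1.47 times higher (log2 fold change 0.55, SE 0.12, adjusted p = 0.00717), at percentile 90.7 of all start regions. With loess offsets the value was 0.25 (adjusted p = 0.0724), the only setting that ended this call. The 4 other KDM6A regions, 22.2 to 100.8 kb after the start, held 4.40 to 6.78 normalised CPM in DMSO and had log2 fold changes between -0.03 and 0.18, none called (adjusted p of 0.404 or more, SEs of 0.16 to 0.25). The strongest of them (chrX:44914214-44915821) held 7.30, 6.79 and 6.23 in DMSO and 6.44, 8.43 and 8.27 with OICR-9429, with overlapping groups.

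KDM6B held the strongest region of the 48. Its start region (chr17:7833210-7845968), which also covers the start of LOC124904106, held 149, 133 and 199 normalised CPM in DMSO and 275, 221 and 242 with OICR-9429. The lowest OICR-9429 library stood above the highest DMSO library, and the region was 1.53 times higher (log2 fold change 0.62, SE 0.14, adjusted p = 0.00784), at percentile 96.5 of all start regions. The call held with loess offsets (0.29, adjusted p = 0.0328, percentile 88.2), and the value ran from 0.45 to 0.80 with 1 library left out. A second region just past the KDM6B end (chr17:7855031-7859584), which covers the start of NAA38, held 45.2, 40.5 and 55.2 in DMSO and 75.2, 60.4 and 59.1 with OICR-9429. It was 1.38 times higher (log2 fold change 0.47, SE 0.14, adjusted p = 0.0235), a call lost with library totals, with loess offsets (0.14) and without DMSO replicate 1, DMSO replicate 2 or OICR-9429 replicate 1. The third KDM6B region (chr17:7850895-7851770) was very weak, with 9, 5 and 7 counts in DMSO and 19, 11 and 13 with OICR-9429. It passed the count filter on its OICR-9429 libraries alone, as did 1 weak JARID2 region, so its log2 fold change of 1.06 (adjusted p = 0.0385) could only be tested because it was higher there. Leaving out any library ended its call.

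Whether the start and the rest of a gene moved apart was compared by the share of the counts of a gene that lay in its start region, from which any single scaling factor per library cancels. An offset that varies with region strength does not cancel: with loess offsets the KDM6A start region stood at 0.25 and its other regions at 0.13 to 0.32. For EZH2 the share was 77.3%, 75.3% and 81.9% in DMSO and 88.2%, 83.9% and 84.3% with OICR-9429, a difference of 7.27 percentage points. For JARID2 it was 17.1%, 15.7% and 20.4% in DMSO and 25.0%, 22.7% and 20.9% with OICR-9429, a difference of 5.16. In both genes the lowest OICR-9429 library exceeded the highest DMSO library. How often this occurs over all genes was not computed. The median log2 fold change was 0.38 over all tested start regions and -0.06 over all tested regions that overlap a gene and no start. On these medians a rise of the share cannot be called particular to these genes, and whether it is was not tested. For KDM6A the share went from 60.2% ± 4.03 to 68.0% ± 4.33 (SD, n = 3 each), and DMSO replicate 3 at 64.5% overlapped the lowest OICR-9429 library at 64.4%. KDM6B (77.1% ± 0.932 and 78.9% ± 1.03) and SUZ12 (91.6% ± 0.598 and 92.6% ± 1.01) differed by 1.86 and 0.94 points. By an exact permutation test (two-sided), p was 0.1 for EZH2, JARID2 and KDM6B and 0.2 for KDM6A and SUZ12. With 3 against 3 libraries it cannot give less than 0.1, so none of these 5 comparisons could pass 0.05. With only the regions that overlap the gene span, and so without the region past its end, the KDM6B difference was -0.08 points. No share could be compared for EED, RNF2 and CBX8, which held 1 region each, or for BMI1.

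**Figure D4:**
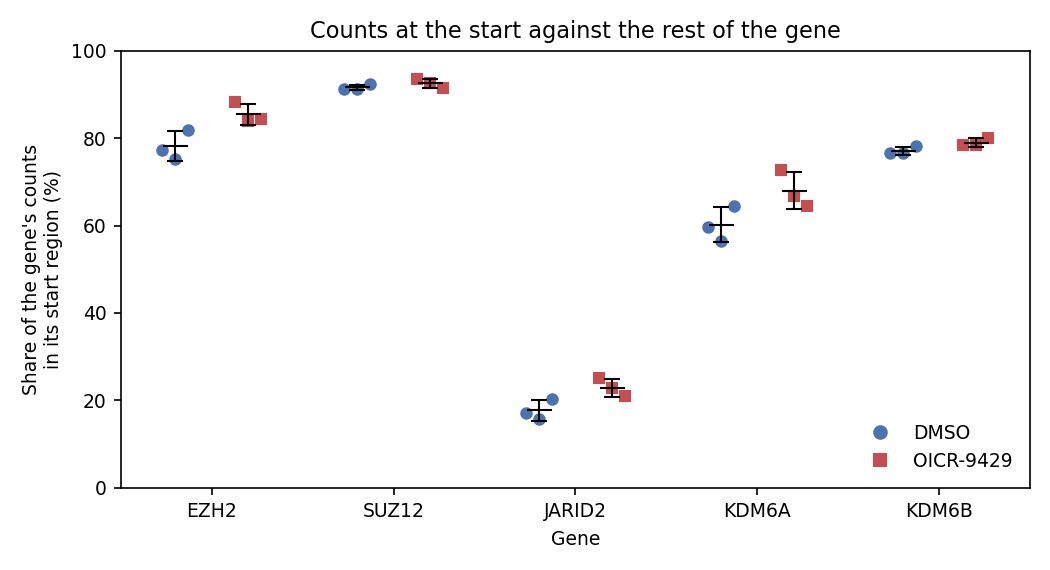
Share of the counts of a gene that lie in its start region (y axis, percent) for the 5 genes with further regions (x axis), in 3 DMSO libraries (circles) and 3 OICR-9429 libraries (squares), with bars for mean ± SD. All squares lie above all circles at EZH2, JARID2 and KDM6B, and the groups overlap at SUZ12 and KDM6A. The share was not computed for other genes.

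Summed over all its regions, KDM6B was the only one of the 9 genes that passed the threshold. Its sum includes the region past its end that covers the NAA38 start, and the BMI1 sum includes the region that covers the COMMD3 start. Counts summed per gene were scaled against the sums of the other genes, and this moves the zero: EED, with a single region, stood at 0.24 among regions and at -0.06 among gene sums. The KDM6B sum went from 206 ± 20.1 to 254 ± 17.0 normalised CPM (log2 fold change 0.30, SE 0.08, adjusted p = 0.0355), beside 5.61% of 15453 genes called higher and 12.2% called lower. The call held with loess offsets (0.36, adjusted p = 0.0340, with 4.83% of genes higher and 9.45% lower) and was lost with any 1 library left out other than DMSO replicate 3, at 0.24 to 0.34. BMI1 had 0.23 (adjusted p = 0.0884) and JARID2 -0.21 (adjusted p = 0.127), and these passed without OICR-9429 replicate 1 and without DMSO replicate 3, at 0.33 and -0.29. The other 6 genes lay between -0.11 and 0.09, with SEs of 0.08 to 0.11.

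The other genes of the Polycomb pathway showed a pattern close to that of start regions in general. Of 45 genes in 5 lists 31 had a tested start region, with 18 called higher and 0 lower, beside 54.6% and 1.81% of all start regions. Their median log2 fold change was 0.38, that of all start regions to 2 decimals. With loess offsets 3 were higher and 2 lower, beside 7.12% and 3.33%. Without DMSO replicate 1 the count was 2 higher (6.80% of all start regions), without DMSO replicate 2 it was 2 (5.81%) and without DMSO replicate 3 it was 28 (78.0%). Of the other 14 genes 11 had no start region, the start regions of RING1 and PCGF2 held 0 counts in all 6 libraries and that of PHF1 fell under the count filter. For the 11, a missing listed start was not told apart from a start outside all regions. Of all 54942 regions 843 held 0 counts in all 6 libraries, and the reason was not tested. The zeros at RING1 and PCGF2 are therefore not read as absence of H3K4me2. Nor is the level near 0 at PHF1 (chr6:33407911-33419202), with a mean of 0.16 normalised CPM in DMSO and 0.23 with OICR-9429. Of the PRC2 accessory genes 4 of 7 were higher (median 0.36), led by RBBP7 (0.47, adjusted p = 0.0140) and AEBP2 (0.45, adjusted p = 0.0170), a histone-binding and a zinc finger subunit of PRC2. Both calls were lost with loess offsets (0.17 and 0.16) and without DMSO replicate 1 or 2, and that of AEBP2 also with library totals. Of the PRC1 genes 10 of 18 were higher (median 0.37). MGA, a subunit of the variant complex PRC1.6, had the smallest p (0.60, adjusted p = 0.00662), followed by PCGF5 (0.61, adjusted p = 0.00704), a relative of BMI1 in variant PRC1, and both kept their calls with loess offsets (0.33 and 0.29), while that of MGA was lost without DMSO replicate 1. At PHC2 and KDM2B, genes of a canonical and a variant PRC1 subunit that were chosen after their values were seen, the values were 0.11 and 0.02 with TMM and -0.23 and -0.32 with loess offsets, where both were called lower.

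The tested genes that act with KDM6A or beside it, 3 partners and 1 demethylase gene, were called higher, where 54.6% of all start regions were. The methyltransferase genes KMT2C and KMT2D, whose products hold KDM6A in their complexes, stood at 0.49 and 0.53 (adjusted p = 0.00946 and 0.0101), and PAGR1, a further subunit gene, at 0.42. KDM7A, which encodes another H3K27 demethylase, stood at 0.55 (adjusted p = 0.0118). None of these 4 passed with loess offsets, at 0.09 to 0.24, or without DMSO replicate 1 or 2. The 2 tested genes of the H2A deubiquitinase complex, which removes the PRC1 mark, were not called (ASXL1 at 0.21 and ASXL2 at 0.31).

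**Figure D5:**
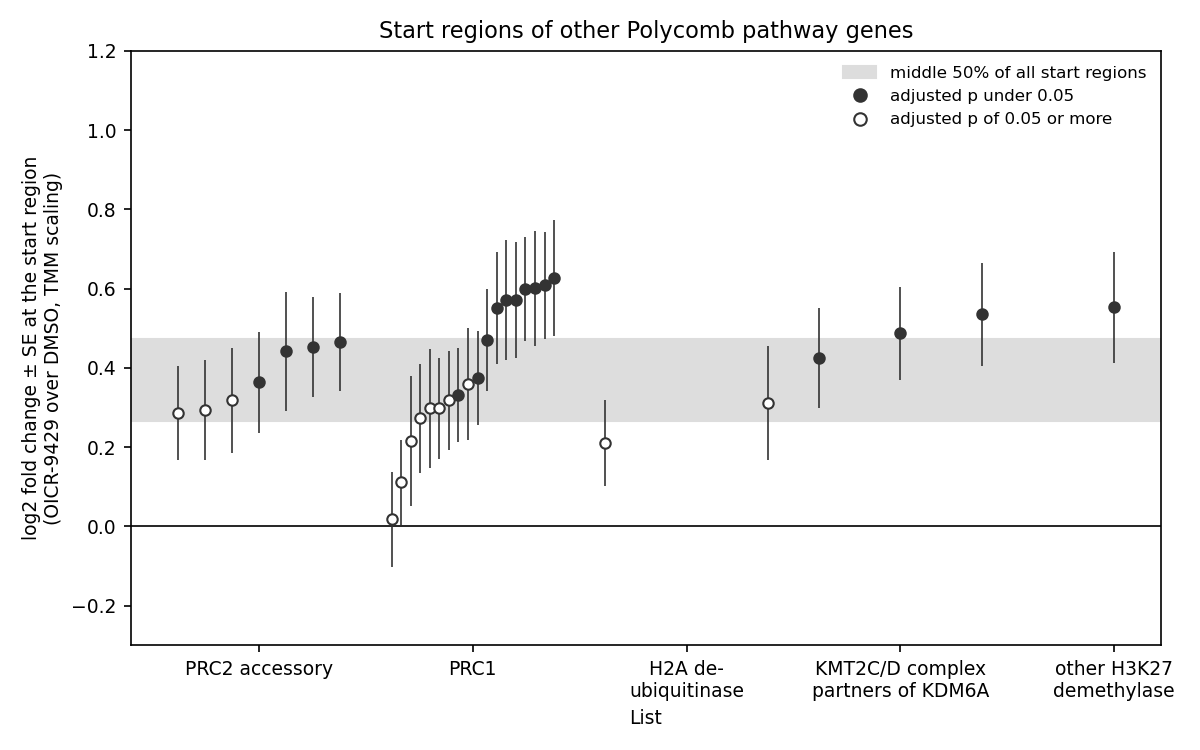
Log2 fold change with its SE (y axis) at the start regions of 31 other genes of the Polycomb pathway, by list (x axis); filled circles have an adjusted p under 0.05, and the grey band holds the middle 50% of all tested start regions. All circles lie above 0 with TMM, from 0.02 at KDM2B to 0.63 at SCML2.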

How the data were processed

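H3K4me2 ChIP-seq was compared between 3 DMSO and 3 OICR-9429 libraries of MDA-MB-231 cells. The deposited table holds raw read counts made by the authors over 1 common set of 54942 regions. The authors used hg38 and dm6 with featureCounts, MACS2, Bowtie, DESeq2 and deepTools, per the submitters' processing notes, which give no versions. How peaks were merged is not given in the sources used here. Columns were matched to libraries through the sample descriptions, since the column numbers run 1 above the replicate numbers in the titles.

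The test was edgeR's quasi-likelihood test (edgeR 4.0.16, R 4.3.3) with TMM factors, filterByExpr and robust estimation, and p-values were adjusted by Benjamini-Hochberg over the 51156 regions that passed the filter, with a threshold of 0.05. The SE is the log2 fold change divided by the square root of F. The settings tried in its place were loess offsets, library totals, size factors of DESeq2, its Wald test (version 1.42.0), a filter at a mean count of 50, no filter, a replicate block, no robust estimation, a threshold of 0.01, other gene windows and each library left out. The code was tested on simulated data. Deviations of log2 CPM from the group mean correlated at -0.16, 0.18 and -0.19 between same-numbered libraries. The numbers were therefore not taken as pairs, though with 3 libraries a group this cannot exclude that they were handled together.

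Gene spans, starts and promoter sequences are from RefSeq tables of GRCh38.p14. Distances run from the outermost listed start to the nearest edge of a region. The members and gene lists were chosen with earlier results of these data known. For each gene the start region and, of its other tested regions, those with the smallest p and the highest mean count are given per library. Of each related list the genes with the 2 smallest p are named.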

Additional observations from a re-analysis of the deposited data

How the results depend on the processing

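Over all regions 8709 were higher and 7179 lower. The counts were 3301 and 11984 with library totals, 2790 and 4571 with loess offsets, 1472 and 2638 at an adjusted p under 0.01, and 5073 higher with a mean count of at least 50. With 1 library left out they ran from 1104 to 12192 and from 4096 to 8234. Of the member regions 9 were higher and 6 lower, against 5 higher with library totals, 2 and 3 with loess offsets, 3 and 2 at 0.01, and 3 to 10 and 3 to 7 with 1 library left out. Of the 15 calls 11 were kept with library totals, 4 with loess offsets and 6 each without DMSO replicate 1 or 2. The replicate block gave 7 higher and 4 lower member regions and ended the call on the KDM6B sum (1 gene against 0). The labels do not say whether libraries of the same number were handled together. The related genes, 18 higher and 0 lower, had 3 and 2 with loess offsets, 5 higher at 0.01 and 2 to 28 higher with 1 library left out. On gene sums 1 higher and 0 lower became 0 higher at 0.01, and 0 to 1 in each direction with 1 library left out. Of the 44 tested member regions 8 turned sign with loess offsets and 9 with library totals. Among the regions given per library and the gene sums, those at the starts of EZH2 (-0.012), EED (-0.079) and CBX8 (-0.029), in JARID2 34.9 kb after the start (-0.20) and in the CBX8 sum (-0.0056) turned with loess offsets. With library totals, those that turned lay in JARID2 34.9 kb after the start (-0.060), in SUZ12 15.2 kb (-0.054) and 37.1 kb (-0.085) after the start and in KDM6A 41.0 kb after the start (-0.019). With 1 library left out these SUZ12 regions ran from -0.081 to 0.43 and from -0.18 to 0.29, and the sums of EED, SUZ12, RNF2, CBX8 and KDM6A from -0.18 to 0.070, -0.10 to 0.051, -0.012 to 0.16, -0.064 to 0.083 and -0.019 to 0.20. The KDM6B share difference was -0.079 points with the gene span alone. The other share differences kept their direction with 1 library left out, at 5.83 to 9.13 points for EZH2, 0.45 to 1.46 for SUZ12, 4.09 to 6.51 for JARID2 and 5.38 to 9.91 for KDM6A. Causes of these shifts were not tested. Regions of under about 20 counts, as in SUZ12, carry SEs above 0.3.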
